A study of Rattus norvegicus with 6 samples.

Results

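Of the 375 rodent miRNA assays on the TaqMan card, 9 read miRNAs that lie in or next to Rtl1 in the imprinted Dlk1-Dio3 region. They were taken by miRNA number, with any arm and either species prefix, and are mmu-miR-127, mmu-miR-136, mmu-miR-337-3p, mmu-miR-337-5p, mmu-miR-370, mmu-miR-431, mmu-miR-433, mmu-miR-434-3p and mmu-miR-434-5p, all with mouse names that are shortened here to miR-127 and so on. In this region the allele inherited from the father makes Dlk1, Rtl1 and Dio3, and the allele inherited from the mother makes the long non-coding RNA Meg3, an antisense transcript of Rtl1 and a long run of miRNAs and small nucleolar RNAs. Rtl1 is a gene of retrotransposon origin that mice need for a working placenta, and in mice the miRNAs made from its antisense strand match the Rtl1 message along their whole length and direct its cleavage. The miRNAs of the region are known for high levels in embryo, placenta and brain and for low levels in most adult tissues.
The cells came from hearts of Wistar-Kyoto rats labelled as 2 months old. MDCs, the round and loosely attached myocyte-derived cells that gather above the layer in long cultures of purified cardiomyocytes, were set against the cardiomyocytes themselves, in 3 sets of values each. No genetic change or drug separates the groups, and both are labelled as kept for 2 weeks in mitogen-rich medium. The paper's results and a figure legend instead describe the cardiomyocytes as fresh, and the methods call them purified. By the methods, the long cultures that gave MDCs held bFGF, TGF-β3 and fetal bovine serum. If the cardiomyocytes were fresh, the time in culture and these additions also separate the groups. After reverse transcription and pre-amplification each well was read as a Ct, the PCR cycle at which fluorescence crosses a threshold, so that a lower Ct means more template. A level here is the mean Ct of the 4 U6 wells of a set minus the Ct of the assay, in log2 units, and a Ct of 40 or an undetermined well counts as no signal.

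The 9 assays belong to 7 hairpins that lie within 33.4 kb of rat chromosome 6, all on the plus strand (RefSeq, build GRCr8). The Rtl1 gene spans chr6:134325231-134335780 and holds 5 of the hairpins, those of miR-431 (chr6:134326449-134326562), miR-433 (chr6:134327358-134327450), miR-127 (chr6:134328454-134328550), miR-434 (chr6:134330402-134330482) and miR-136 (chr6:134331335-134331416). The miR-337 hairpin (chr6:134321142-134321238) lies 3.99 kb before the Rtl1 gene, and that of miR-370 (chr6:134354491-134354569) starts 18.71 kb beyond it. The strand of Rtl1 itself was not in the annotation tables used here. Of the 9 assays, 8 matched a mature rat sequence in RefSeq, and miR-136 did not. An assay name without an arm was read in the older sense of that name, which stands for the 3′ arm in miR-127, miR-370 and miR-433. The rat sequences of the miRNAs on which the results turn follow, with the seed (bases 2 to 8), the part that pairs first with a target, in capitals:
miR-127-3p: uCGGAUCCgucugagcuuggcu
miR-431: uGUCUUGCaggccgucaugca
miR-433-3p: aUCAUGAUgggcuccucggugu
miR-370-3p: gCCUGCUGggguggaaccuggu
miR-434-3p: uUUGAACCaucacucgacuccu
miR-337-3p: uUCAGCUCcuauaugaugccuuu
miR-337-5p: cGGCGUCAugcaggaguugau
No seed was shared. The 8 matched members had 8 different seeds, and none of the other sequences among the 724 mature rat entries carried any of them. The longest stretch common to a pair of members was 9 bases. This length was set by the members themselves, so its share among all miRNAs is a description and not a test. Stretches of this length were shared by 2 of 28 member pairs and by 0.171% of all pairs of distinct mature rat miRNAs. One of these stretches, CGUCAUGCA, lies in miR-337-5p and at the end of miR-431, and the other, UUUGAACCA, lies in both arms of miR-434. Both arms of miR-337 and of miR-434 have an assay, so these hairpins are shown whole, with the 5′ and the 3′ arm in capitals:
miR-337 hairpin: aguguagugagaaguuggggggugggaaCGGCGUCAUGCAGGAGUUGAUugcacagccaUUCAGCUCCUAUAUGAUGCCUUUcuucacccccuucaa
miR-434 hairpin: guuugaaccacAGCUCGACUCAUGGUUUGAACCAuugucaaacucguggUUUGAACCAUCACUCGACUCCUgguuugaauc
The assays were made for mouse, and how closely each mouse target matches these rat ends was not tested.

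The 6 sets are not 6 separate samples. No well gave a signal in 1 MDC set and none in another, the order of the 4 U6 wells was identical in all 3, and the same was true of Myocyte 2 and Myocyte 3. Each of these groups was counted as 1 card read more than once and averaged, which leaves 1 MDC sample and 2 myocyte samples. The SD of the Ct difference over wells was 0.0892 between Myocyte 2 and Myocyte 3 and 0.383 between MDC 2 and MDC 3. Between MDC 1 and these MDC sets it was 1.09 and 1.42, more than the 0.49 and 0.517 between the separate myocyte cards. The merging of MDC 1 thus rests on its wells with signal and the order of its U6 wells. The methods state 2 biological and 2 technical repeats, and the labels do not say which sets are which. MDC 1 may thus be a reading of another MDC sample, which was not tested. MDC 1 stands apart among the readings, since 99.5% of its wells with signal had a Ct within 0.1 cycles of a whole number, against 16.7% to 21.6% in the other 5 sets. Its Ct values therefore carry steps of about 1 cycle, and differences are also given without it. Signal was present for 201 miRNAs in each MDC set and for 203 to 212 in the myocyte sets, and the number of molecules behind a Ct is not known. U6 had a mean Ct of 13.39 to 14.43 in the MDC sets and of 14.68 to 15.11 in the myocyte sets. Of the other controls, snoRNA135 had a Ct of 20.5 to 22.0 in MDCs and 21.9 to 22.5 in myocytes, Y1 of 22.0 to 25.5 in MDCs and 19.6 to 20.5 in myocytes, and U87 of 31.0 to 33.2 in MDCs and 18.5 to 18.7 in myocytes. U6 thus came earlier in MDCs in every set, Y1 and U87 came later, and the ranges of snoRNA135 overlapped. Of the 7 assays for cardiomyocyte miRNAs, 5 were lower in MDCs and 2, miR-208 and miR-208b, had signal in myocytes only. Their summed level was −8.09 to −7.30 in the MDC sets and 4.32 to 4.57 in the myocyte sets.

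In MDCs 8 of the 9 members gave a signal, and in 5 of them it came many cycles earlier than in myocytes or where myocytes gave none. Over all 375 assays, 53.6% gave a signal in MDCs and 9.33% gave it in MDCs and in no myocyte sample. miR-127 was higher in MDCs by 9.77 log2 units, and miR-136 by 9.54 on the 1 myocyte card on which it could be read. miR-370, miR-431 and miR-433 were read in MDCs at a mean Ct of 21.7, 21.1 and 24.1 and gave no signal in any myocyte set. Of the remaining members, miR-434-3p and miR-337-5p were lower in MDCs relative to U6, miR-337-3p was read in MDCs and, later, on 1 myocyte card, and miR-434-5p had no signal anywhere.

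**Figure D1:**
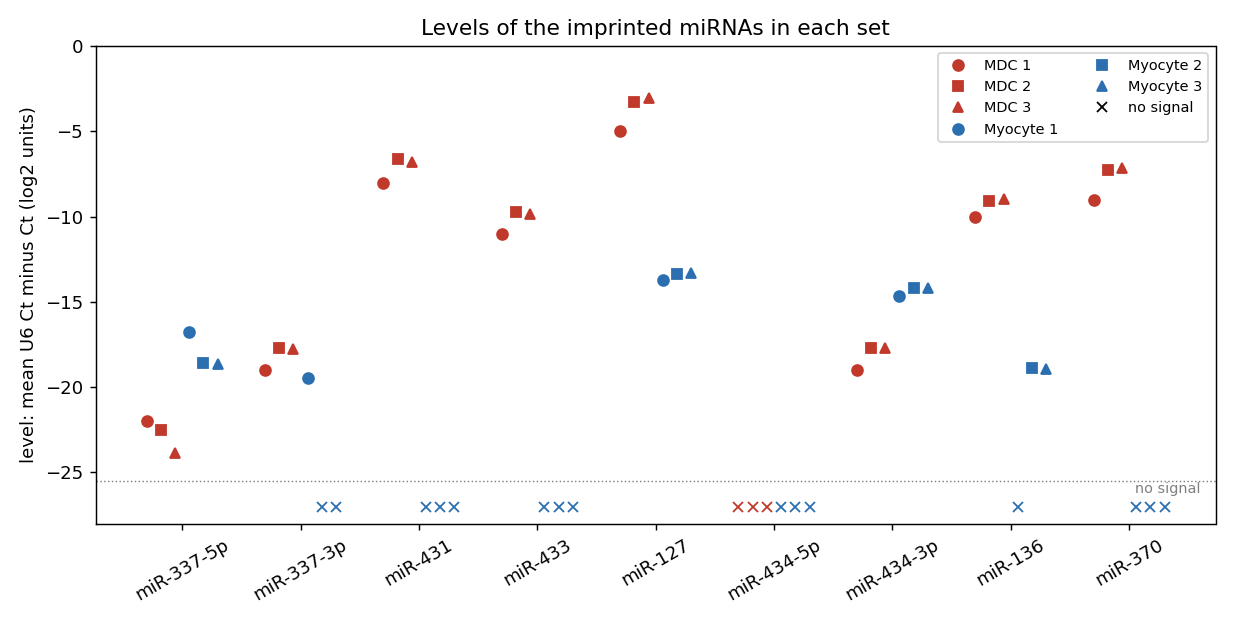
Level of each member in each set, as mean U6 Ct minus Ct in log2 units, in the order of the hairpins along the chromosome. Red points are the 3 MDC sets, counted here as readings of 1 card, blue points the 3 myocyte sets, and crosses mark sets without signal. miR-127, miR-136, miR-370, miR-431 and miR-433 stand high in red, while miR-434-3p and miR-337-5p stand lower in red than in blue.

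miR-127, the most abundant member, represses the transcription factor BCL6 in human cells. Its Ct was 19.0, 16.7 and 17.5 in MDC 1 to 3, against 28.4, 28.3 and 28.4 in Myocyte 1 to 3. The latest MDC reading thus came more than 9 cycles before the earliest myocyte reading. As levels these are −4.99, −3.27 and −3.04 in the MDC sets and −13.74, −13.35 and −13.33 in the myocyte sets. miR-127 was the 10th highest of 201 miRNAs with signal in MDCs and the 145th of 196 with signal on both myocyte cards, ranks that also hold the differences in efficiency between assays. The difference of 9.77 ± 0.35 (SE) corresponds to 873-fold more in MDCs and was the 4th highest of 157 miRNAs with signal in every sample (limma, adjusted p = 8.01e-62). Among those 157 miRNAs 28.0% were called higher, and miR-127 was the only member among them. Without MDC 1 its difference was 10.38.
The size of these p-values needs care, since limma gave every miRNA the same SD of 0.28 log2 units, taken from the 2 myocyte cards. MDCs, with 1 sample, were thus given the same spread. Yet the MDC readings alone had an SD of 1.07 for miR-127, 0.76 for miR-434-3p and 0.96 for miR-337-5p. Each of these exceeds both the shared SD and the SE of 0.35 given with the differences. With all MDC sets counted as 1 sample, no spread among MDC cultures could be measured. An exact permutation of 1 sample against 2 cannot give a p below 0.333. With the 3 MDC readings entered as 3 samples the adjusted p of miR-127 was 1.27e-34 in limma, and with all 6 sets as separate samples it was 2.66e-10. By the methods' own unpaired test on the merged samples, which uses the spread of each miRNA alone, its p was 0.0223 before adjustment and 0.0977 after. With all 6 sets taken as separate samples the same test gave an adjusted p of 0.000742. Each p on all 6 sets, here and below, treats sets counted as repeat readings as if they were replicates.

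miR-431, known in mouse muscle stem cells as a repressor of Pax7, had a Ct of 22.0, 20.0 and 21.2 in MDC 1 to 3 and no signal in Myocyte 1 to 3. miR-433, studied in rodent cardiac fibroblasts for its part in fibrosis, had a Ct of 25.0, 23.1 and 24.3 in the MDC sets and likewise none in myocytes. miR-370, known in human liver cells as a repressor of the fatty acid oxidation enzyme CPT1A, had a Ct of 23.0, 20.7 and 21.6 in the MDC sets and none in myocytes. All 3 were thus well within the readable range in every MDC reading and unread on both myocyte cards. Such a pattern, signal in MDCs and in no myocyte sample, was found in 9.33% of the 375 assays and in 3 of the 9 members.
With the missing Ct values put at 40, the levels in MDCs were at least 18.00 log2 units higher for miR-431, at least 17.34 for miR-370 and at least 14.95 for miR-433. These bounds were the 3rd, 5th and 9th highest of 35. A well without signal does not always mean a Ct near 40, however. Of 219 miRNAs with signal on a myocyte card, 23 had it on 1 card only, and their Ct there was as early as 25.2 with a median of 33.5. With the limit put at Ct 32, the bounds were 10.00 for miR-431, 9.34 for miR-370 and 6.95 for miR-433. Without MDC 1 and with the limit at 40 they were 18.44, 17.94 and 15.35.

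miR-136 was read in MDCs at a Ct of 24.0, 22.5 and 23.4, against no signal in Myocyte 1 and a Ct of 33.8 and 34.0 in Myocyte 2 and Myocyte 3. The myocyte card that read it thus placed it about 10 cycles behind the MDC card. Against the card of Myocyte 2 and Myocyte 3, its level was 9.54 log2 units higher in MDCs, with a range of 8.89 to 9.93 over the readings, and against Myocyte 1 it was at least 15.95 higher with the missing Ct at 40. Since it had no signal on 1 card it was not tested. With the missing Ct at 40, which raises the spread, its difference was 12.74 (limma, adjusted p = 0.0561).

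miR-434-3p, known for slowing apoptosis in mouse skeletal muscle cells, had a Ct of 33.0, 31.1 and 32.1 in MDC 1 to 3, against 29.3, 29.1 and 29.3 in Myocyte 1 to 3. The MDC readings were late, and none of them overlapped the myocyte values. Its level was −18.14 in MDCs, from −19.02 to −17.71 over the readings, and −14.43 ± 0.32 in myocytes (SD, n = 2 samples). It was lower by a difference of −3.72 ± 0.35 (SE), or 13.1-fold (limma, adjusted p = 7.54e-20), and the difference was −3.28 without MDC 1. By the methods' test on the merged samples the unadjusted p was 0.0677, and on all 6 sets the adjusted p was 0.00432. At a limit of Ct 32 it no longer had signal in every MDC reading and could not be tested. The 5′ arm of the same hairpin, miR-434-5p, gave no signal in any of the 6 sets.
miR-337-5p had a Ct of 35.9, 35.9 and 38.3 in the MDC sets, the last of the 201 miRNAs with signal there, against 31.4, 33.5 and 33.7 in the myocyte sets. The MDC values again lay apart from the myocyte values, but all of them are late. Its difference was −5.10 ± 0.35 (SE), or 34.4-fold lower (limma, adjusted p = 1.47e-30), and −5.50 without MDC 1. Between the 2 myocyte samples this miRNA had an SD of 1.30, against the shared 0.28 used in the test, and the methods' test on the merged samples gave an unadjusted p of 0.193 and on all 6 sets an adjusted p of 0.0111. At a limit of Ct 35 it counted as a miRNA of myocytes only. The lower call is common on this card, since 52.2% of the 157 miRNAs tested were called lower, against 2 of the 3 members tested. The median difference of all 157 was −0.80, and relative to it the members stood at 10.57 for miR-127, −2.91 for miR-434-3p and −4.30 for miR-337-5p.
miR-337-3p, the other arm of that hairpin, was read at a Ct of 33.0, 31.1 and 32.2 in the MDC sets, against 34.1 in Myocyte 1 and no signal in Myocyte 2 and Myocyte 3. Its level was 1.28 log2 units higher in MDCs than in Myocyte 1, from 0.45 to 1.71 over the readings, and at least 6.83 higher than on the other card with the missing Ct at 40. With the missing Ct at 40 its difference was 4.06 and did not pass the threshold (limma, adjusted p = 0.308).

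Assays read in 1 set share the normalizer, the RNA input and the card, so the gap between the Ct values of a pair depends on none of the controls. In the MDC readings miR-434-3p came 14.02, 14.43 and 14.67 cycles after miR-127, against 0.92, 0.86 and 0.86 cycles in Myocyte 1 to 3. The hairpins of these miRNAs lie about 2 kb apart on 1 strand, and the gap between them was 13.49 cycles wider in MDCs. For the arms of miR-337 the order itself differed. In the MDC sets the 5′ arm came 2.98, 4.77 and 6.09 cycles after the 3′ arm, whereas in Myocyte 1 it came before it, at a gap of −2.69 cycles. In Myocyte 2 and Myocyte 3, where the 3′ arm had no signal, the gap was at most −6.53 and −6.27 with the missing Ct at 40. With a missing Ct put at 32 the 5′ arm would follow the 3′ arm in these sets too, so the opposite order of the arms was measured in Myocyte 1 alone, and on late Ct values.
Between miR-136 and miR-127 the gap was alike in both groups on the myocyte card that gave both. It was 5.02, 5.84 and 5.94 cycles in the MDC sets, against 5.55 and 5.59 in Myocyte 2 and Myocyte 3, and the means differed by 0.03 cycles. On the card of Myocyte 1, miR-136 had no signal, and the gap was at least 11.58 with the missing Ct at 40. miR-370, miR-431 and miR-433 followed miR-127 by means of 4.04, 3.38 and 6.44 cycles in MDCs, and in the myocyte sets each was at least 11.56 cycles behind it with the missing Ct at 40. With a missing Ct put at 32 in place of 40, the myocyte bound would fall below the mean MDC gap for miR-370 and miR-433. For miR-431 it would stay above the mean MDC gap, but not above the gap of 3.75 cycles in MDC 3. The gaps were not tested.

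**Figure D2:**
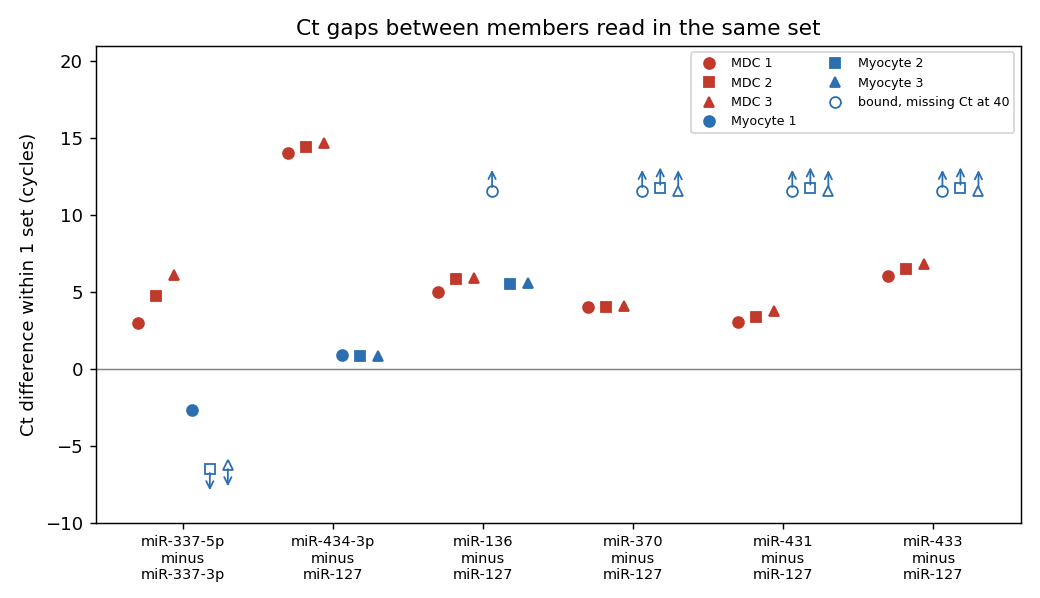
Gap in Ct, in cycles, between a pair of members read in the same set, for the 3 MDC sets (red) and the 3 myocyte sets (blue). Open symbols with arrows are bounds with the missing Ct at 40; the gap of miR-434-3p to miR-127 is 14.02 to 14.67 in MDCs and 0.86 to 0.92 in myocytes, and the gap of the miR-337 arms is above 0 in MDCs and below it in Myocyte 1.

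The order of the mean levels in MDCs was miR-127 (−3.77), miR-431 (−7.15), miR-370 (−7.81), miR-136 (−9.37), miR-433 (−10.21), miR-434-3p (−18.14), miR-337-3p (−18.16) and miR-337-5p (−22.77). miR-431 and miR-370 were closer to each other than the SD of their readings (0.77 and 1.04), and so were miR-434-3p and miR-337-3p (0.76 and 0.72). In myocytes the members with signal on both cards were miR-127 (−13.54), miR-434-3p (−14.43) and miR-337-5p (−17.67). Each of these orders also depends on how well an assay amplifies, and the folds given here take each cycle as a doubling, which was not tested.
The direction of the late members depended on the control. With U6, with snoRNA135 (−3.58 and −4.97), with the mean of all detected miRNAs and on raw Ct, miR-434-3p and miR-337-5p were lower in MDCs. With U87 they were higher, by 10.38 and 8.99, and with the mean of snoRNA135, U87 and Y1 they were higher by 2.52 and 1.13. With Y1 their differences were 0.77 and −0.61, and neither passed (limma, adjusted p = 0.220 and 0.323). miR-127 was higher with every control, by 9.77 to 23.86. Relative to U6, these choices move the median difference of all 157 miRNAs up by 14.09 with U87, 6.24 with the mean of the other controls, 4.49 with Y1, 0.91 when raw Ct is compared, 0.90 and 0.84 with the mean and the median of all detected miRNAs and 0.13 with snoRNA135.

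**Figure D3:**
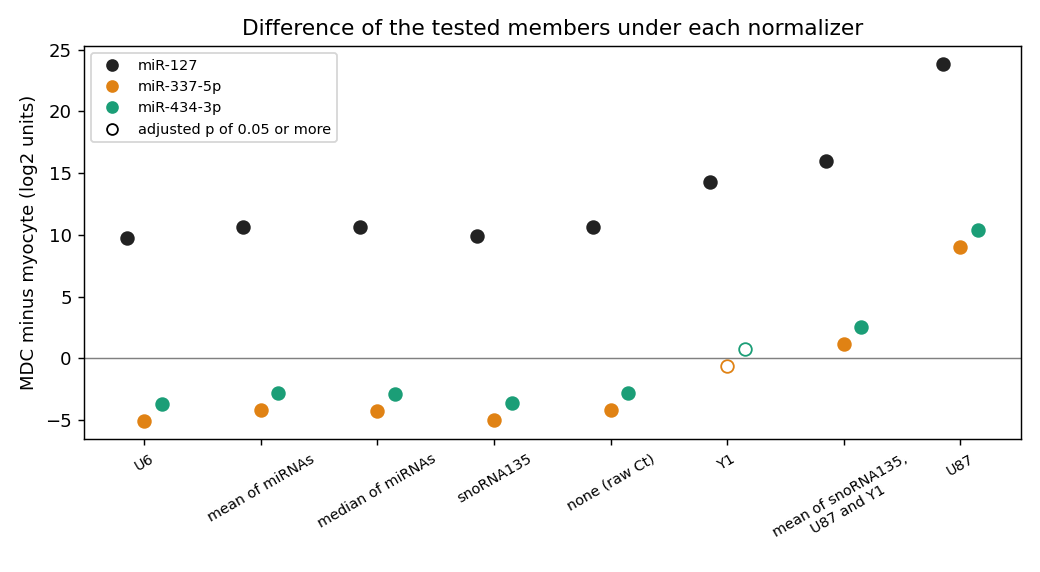
Difference between MDCs and myocytes, in log2 units, of the 3 members with signal in every sample under each normalizer. Filled points have an adjusted p under 0.05 in limma and open points do not; miR-127 is above 0 in all 8 columns, while miR-434-3p is above 0 with Y1, U87 and the mean of the other controls, and miR-337-5p is above 0 with U87 and that mean.

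The card holds 43 further assays from the Dlk1-Dio3 region, chosen by miRNA number from general knowledge, and 40 of them matched a rat miRNA between Dlk1 and Dio3. Of the 9 members 8 had signal in MDCs (88.9%), against 25 of these 43 (58.1%) and 201 of all 375 assays (53.6%). In at least 1 myocyte set, signal was found for 5 of the 9 members, for 11 of the 43 and for 219 of the 375. Among the 43, 5 were higher (miR-369-5p, miR-379, miR-410, miR-411 and miR-494), miR-667 was lower (−1.11) and the rat assay of miR-381 did not pass. The call of miR-667 was lost with the mean or the median of all miRNAs as normalizer and on raw Ct. A further 16 had signal in MDCs only, miR-376c in myocytes only, 3 on 1 myocyte card and 16 nowhere. Mouse and rat assays of 1 miRNA did not always read alike. The rat assay of miR-381 stood at −10.50 in myocytes, where the mouse assay had signal on 1 card only. The mouse assay of miR-543 had signal in MDCs only and the rat assay nowhere. For miR-377 and miR-409-5p the mouse and rat assays had the same status. The median difference was 5.49 over the 7 tested, against −3.72 over the 3 members tested and −0.80 over all 157. These medians hold only assays with signal in every sample, and the −3.72 is the value of miR-434-3p. They leave out miR-136, miR-370, miR-431 and miR-433, and the 16 other assays with signal in MDCs only. The members and the other assays therefore cannot be compared by them. Among the 7, miR-411 lay nearest to miR-127 in level over the 6 sets, with −4.14 in MDCs and −15.41 in myocytes and a difference of 11.27 ± 0.35 (SE). Next came miR-494, with −7.72 in MDCs and −12.30 in myocytes and a difference of 4.57.
Over all miRNAs with signal in all 6 sets, the patterns most like that of miR-127 were those of miR-411, miR-214 and miR-410. The root mean square difference of their 6 levels, each centred on its own mean, was 0.79, 0.80 and 0.82 log2 units, against a median of 5.27 over all miRNAs compared. Those of miR-434-3p were let-7g, miR-101a and miR-130a, at 0.09, 0.15 and 0.18 against a median of 1.76. For miR-337-5p they were rno-miR-450a, miR-542-5p and miR-107, at 0.74, 0.78 and 0.86 against a median of 2.40. All of these share what were counted as 3 cards, so the likeness is a description over 6 sets and not over 6 samples.
Markers of other cells moved beside the members. Of the 4 assays for miRNAs abundant in fibroblasts, miR-21, miR-214 and miR-199a-3p were higher in MDCs, and miR-199a-5p was read in MDCs and in no myocyte set. Their summed level was −1.81 to −0.86 in the MDC sets and −5.97 to −5.84 in the myocyte sets. Both endothelial assays, miR-126-3p and miR-126-5p, were lower, with a summed level of −12.84 to −11.39 in MDCs and −3.78 to −3.35 in myocytes. The smooth muscle pair, miR-143 and miR-145, was at −2.90 to −1.73 in MDCs and −0.22 to −0.05 in myocytes, and the 5 leukocyte assays at −6.96 to −4.61 in MDCs and −4.18 to −4.04 in myocytes. Not all leukocyte assays went that way, as miR-142-5p was read in MDCs and in no myocyte set and miR-155 stood 2.77 log2 units higher in MDCs. The erythroid miR-451 had no signal in MDCs. The part of these cell types in the levels of the members was not tested. The myocytes had been purified by sedimentation and a Percoll gradient, and the RNA is that of all cells harvested, so more cells of a type and more RNA per cell cannot be told apart.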

How the data were processed

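Ct values of TaqMan rodent miRNA cards were analysed for 3 MDC and 3 myocyte sets. The authors reverse-transcribed and pre-amplified the RNA and took the Ct values with the software of the instrument, with threshold and baseline settings not given in the sources used here. The deposited values are raw Ct per well, in PCR cycles, and a table of Ct minus mean U6, which differed from the raw values so treated by at most 5e-05 cycles and was not used further. Undetermined wells were set to 40. Levels, the merging of repeated readings and limma 3.58.1 (R 4.3.3), with Benjamini-Hochberg adjustment over all 157 miRNAs with signal in every sample and a threshold of 0.05, followed an earlier treatment of these files. limma was tested on data simulated with the same SD for every assay and sample, which cannot probe a wider spread among MDCs. The methods state biological and technical repeats but no source assigns the sets to them, so p-values measure the spread between cards, which may be technical. The members, lists and tests were chosen with earlier results of these data known. All members are named, and their nearest patterns by root mean square difference. Other normalizers, detection limits, moderation, groupings of readings, the methods' unpaired test and omission of each set were run as alternatives. Reading 1 was examined apart after its values had been seen. Sequences and positions are from RefSeq (GRCr8). Plots came from matplotlib 3.10.9 under Python 3.11.15.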

Additional observations from a re-analysis of the deposited data

How the results depend on the processing

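The higher call of miR-127 held under the normalizers, limits and groupings of readings that were run, except in the methods' t-test on the merged samples after adjustment. miR-370, miR-431 and miR-433 had signal in MDCs alone at the limits of Ct 35 and 32 too. A stricter limit could not change this, since their MDC Ct values were at most 25.0 and myocytes gave no signal at 40. The 2 lower calls depended on the control and on late Ct values. With missing Ct values at 40, miRNAs without signal in every sample were tested too, so 254 entered in place of 157. Of all miRNAs, 140, 120 and 157 were higher and 10, 16 and 0 lower with the mean of the other controls, Y1 and U87, and 68 were higher with missing Ct values at 40. The methods' t-test on the merged samples gave 20 higher and 43 lower without adjustment and 0 and 0 with it, where limma gave 44 and 82. On all 6 sets it gave 34 and 68, or 33 and 61 after adjustment, with 1 member higher and 2 lower and 5 other Dlk1-Dio3 assays higher both before and after adjustment. The members tested became 3 higher and 0 lower with the mean of the other controls and with U87, 0 lower with Y1, 1 lower at Ct 35, 0 lower at Ct 32 and 4 higher with missing Ct at 40. By the methods' t-test on the merged samples 0 were lower, and 0 were higher after adjustment. The difference of miR-337-5p was −5.10 in the main comparison, 1.13 with the mean of the other controls, 8.99 with U87 and −0.61 with Y1, and that of miR-434-3p, −3.72 in the main comparison, was 2.52, 10.38 and 0.77. In the methods' t-test on the merged samples the differences of 9.77, −5.10 and −3.72 had an adjusted p of 0.0977, 0.241 and 0.130.
Of the other Dlk1-Dio3 assays, 5 were higher in the main comparison, 3 at Ct 32, 22 with missing Ct at 40, and 3 by the methods' t-test on the merged samples, or 0 after adjustment. The 1 lower, miR-667, became 0 with the mean or median of all miRNAs, the mean of the other controls, U87, Y1, raw Ct values, MDC reading 1 alone, MDC readings as 3 samples, without MDC 3, with all 6 sets as separate samples with or without the replicate block, by the adjusted methods' t-test on the merged samples, and by that test on all 6 sets.
When each set was left out in turn, the difference was 9.40 to 10.38 for miR-127, −5.50 to −4.18 for miR-337-5p and −3.95 to −3.28 for miR-434-3p. The members tested stayed at 1 higher and 2 lower, the calls over all miRNAs lay at 38 to 54 higher and 74 to 87 lower, and the other Dlk1-Dio3 assays at 5 to 6 higher and 0 to 1 lower. Without Myocyte 1 the groups hold 1 sample each and the differences have no test. Deviations of same-numbered sets correlated at 0.12, −0.08 and 0.24 over 157 miRNAs, and those of differently numbered sets at −0.19 to 0.08. Most sets were counted as repeat readings of a card, so these values cannot show whether the replicate numbers pair the samples. With the replicate block on all 6 sets the differences were 9.70, −4.80 and −3.79 for miR-127, miR-337-5p and miR-434-3p. Each stayed called, in a fit that takes repeat readings as samples. With MDC readings 2 and 3 as 2 samples, an alternative chosen after seeing the data, they were 10.38, −5.50 and −3.28 and were called too.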
